A study of Homo sapiens with 18 samples.

Results

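The 32 genes described here encode the folding, stress-sensing and degradation machinery of the endoplasmic reticulum (ER), taken as the rows of the count table that carry their symbols. They comprise 11 chaperones and cochaperones, 4 protein disulfide isomerases, 5 stress sensors and transcription factors, 10 genes of ER-associated degradation and 2 subunits of the Sec61 translocon. All 32 were matched among the 57820 gene rows and all 32 passed the filter on low counts, which left 15307 genes for testing. The cells were MDA-MB-231, an established line from a human triple-negative breast cancer, and made up 3 groups of 6 libraries that carried siRagC1, siRagC2 or the control siRNA siCtrl. All cells were wild type by their label, grew in L-15 medium with 15% serum and were lipofected with siRNA in OPTI-MEM for 72 h, the controls included. The study silenced RagC, the GTPase that tethers mTORC1 to the lysosome, to ask which genes change when this growth-controlling kinase complex is repressed. The labels number the libraries of a group as biological replicates and do not say whether they came from separate cultures, so a p-value reflects only how far these libraries spread.

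Proteins that enter the secretory pathway fold in the ER with the help of chaperones such as BiP, and disulfide isomerases form and rearrange their disulfide bonds. When unfolded proteins accumulate, the sensors ATF6, IRE1 and PERK start the unfolded protein response, which raises chaperone and degradation genes through ATF6 and spliced XBP1 and slows translation through PERK. Proteins that fail to fold are recognised by the EDEM mannosidases and OS9, exported through the SEL1L and SYVN1 complex and degraded by the proteasome.

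Totals ran from 14.8 to 71.6 M counts per library (M, 1e6). The library codes fall into series D1103, with replicates 1 and 2 of each group, and series D1221, with replicates 3 to 6; the meaning of the codes was not stated. RRAGC, which encodes RagC, stood at 12.3, 24.3 and 31.8 CPM (lowest, median and highest library) with siRagC1 and at 19.3, 26.1 and 40.8 CPM with siRagC2, against 60.6, 61.5 and 67.9 CPM with siCtrl. CPM are counts per 1e6 counts of the library, with the library total scaled by its TMM factor. They are not divided by gene length, so levels are compared here between libraries and not between genes. All 12 libraries with an siRNA against RagC lay below all 6 controls, with log2 fold changes of -1.43 and -1.20 (edgeR, adjusted p = 0.000373 and 0.00135). Silencing was deeper in D1103: fitted per series, siRagC1 gave -2.04 ± 0.22 in D1103 and -1.12 ± 0.15 in D1221 (SE). For siRagC2 these values were -1.65 ± 0.21 and -0.95 ± 0.15. The difference between series had an unadjusted p of 0.00236 and 0.0141 (edgeR interaction) and was not called after adjustment. Of the markers of the line, VIM reached 3787 to 5378 CPM over all libraries AXL 1211 to 1474 CPM, CD44 761 to 1064 CPM and EGFR 475 to 725 CPM, while SPARC, also listed as present, was near 0 at 0.470 to 2.27 CPM. ESR1 and PGR did not exceed 0.164 CPM and KRT18, listed as low, reached 229 to 300.4 CPM; of the other epithelial markers, CDH1 did not exceed 1.60 CPM, GATA3 10.3 CPM and EPCAM 19.3 CPM. CAV1, another marker of the line, stood at 399.0 to 422.2 CPM with siRagC1 and 358.9 to 422.6 CPM with siRagC2, against 431.7 to 485.1 CPM with siCtrl, and fell with both siRNAs (log2 fold changes -0.17 and -0.19; edgeR, adjusted p = 0.0312 and 0.0131). PTPRC, CD3E, CD14 and VWF, which mark other cell types, did not exceed 1.05 CPM in any library. In bulk RNA, fewer cells with a transcript and less transcript per cell cannot be told apart.

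Part of the response to unfolded proteins is written in promoters. ATF6 with the factor NF-Y is known to bind the ER stress response element (ERSE, CCAAT and CCACG 9 bases apart), and the shorter ERSE-II (ATTGG and CCACG 1 base apart) is known as a target of ATF6 and XBP1. Both motifs were searched on both strands of RefSeq promoters (GRCh38.p14), from 250 bases before to 50 bases after each start. Only exact matches of all fixed letters counted, and 29 of the 32 genes had such a promoter. An ERSE was found in 27 of 35116 promoters (0.0769%) and in 7 of the 29 genes, and an ERSE-II in 19 promoters (0.0541%) and in 3 further genes. The matches in these genes are shown 5′ to 3′ along the motif, because they name the members that ATF6 can be set against; capitals mark the fixed letters.
HSPA5 ERSE: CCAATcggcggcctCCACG
XBP1 ERSE: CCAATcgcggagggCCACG
HSP90B1 ERSE, first match: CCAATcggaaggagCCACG
HSP90B1 ERSE, other match: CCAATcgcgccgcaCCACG
CALR ERSE: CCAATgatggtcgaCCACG
CANX ERSE: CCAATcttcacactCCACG
PDIA6 ERSE: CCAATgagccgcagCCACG
CRELD2 ERSE: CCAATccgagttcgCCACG
HERPUD1 ERSE-II: ATTGGgCCACG
HYOU1 ERSE-II, both matches: ATTGGaCCACG
SDF2L1 ERSE-II: ATTGGtCCACG
The core of the UPRE (TGACGTGG), which XBP1 is known to bind, occurred in 0.729% of promoters and in 1 of these genes, HYOU1, where it overlaps an ERSE-II. The CLEAR motif (CACGTG between GT and AC), known as a target of the mTORC1-controlled factors TFEB and TFE3, occurred in 0.353% of promoters and in 0 of the 29, and its core CACGTG in 7.26% of promoters and in 4 of the 29 (CANX, DNAJB9, HERPUD1 and HSP90B1).

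Silencing of RagC left this machinery close to its control level. Of the 32 genes, 1 rose with siRagC1 and 0 fell (edgeR, adjusted p under 0.05), where 2.04% of all genes tested were called, 1.41% of them higher and 0.627% lower. With siRagC2, 0 of the 32 were called, against 3.23% of all genes; 5 had an unadjusted p under 0.05, and DESeq2 and limma-voom also called 0. With a block for the replicate number 1 of the 32 fell with siRagC2, HSPA5, against 6.44% of all genes called in that fit. For the mean of both siRNAs 1 of the 32 rose and 0 fell, against 4.95% of all genes called, 2.72% higher and 2.23% lower, and 0 of the 32 were called in the same direction with each siRNA, against 1.08%. All these comparisons share the 6 control libraries. The gene called without the block was EDEM1 each time; with it, the mean of both siRNAs called EDEM1 as higher and HSPA5 as lower, against 8.83% of all genes. Directly compared, siRagC1 and siRagC2 differed in 0 of the 32 by edgeR, DESeq2 or limma-voom and in 0% of all genes by edgeR; an unadjusted p under 0.05 was found for 1 of the 32, SEL1L (0.13 higher on the log2 scale with siRagC1), against 7.75% of all genes.

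The lack of calls came with narrow intervals. The 95% interval of the fold change lay within 0.32 of 0 on the log2 scale for 31 of the 32 genes with siRagC1 and for 30 of the 32 with siRagC2, against 64.9% and 64.0% of all genes tested. The interval of DERL3 crossed this limit in both comparisons and that of SDF2L1 with siRagC2. The same held for 31 of the 32 for the mean of both siRNAs and between the siRNAs, against 69.0% and 69.3% of all genes. The median log2 fold change of the 32 was -0.01 with siRagC1 and -0.0039 with siRagC2, against 0.0051 and 0.0047 over all genes. Their median absolute log2 fold change was 0.04 and 0.05, against 0.08 for all genes in both comparisons, and their median SE was 0.04 in both, against 0.07. An unadjusted p under 0.05 was reached by 4 of the 32 with siRagC1 (DNAJB11, EDEM1, EDEM2 and SEL1L) and by 5 with siRagC2 (CALR, PDIA6, HERPUD1, EDEM1 and OS9), against 17.1% and 18.5% of all genes; these were named after their values were seen. The CPM of all 32 added up to 9336 ± 296 with siRagC1, 9265 ± 154 with siRagC2 and 9262 ± 207 with siCtrl (SD, n = 6 each). HSP90B1, CANX, CALR and HSPA5 weighed most in this sum, with means of 1501, 1339, 1102 and 1071 CPM with siCtrl. It therefore says little about members with few counts.

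**Figure D1:**
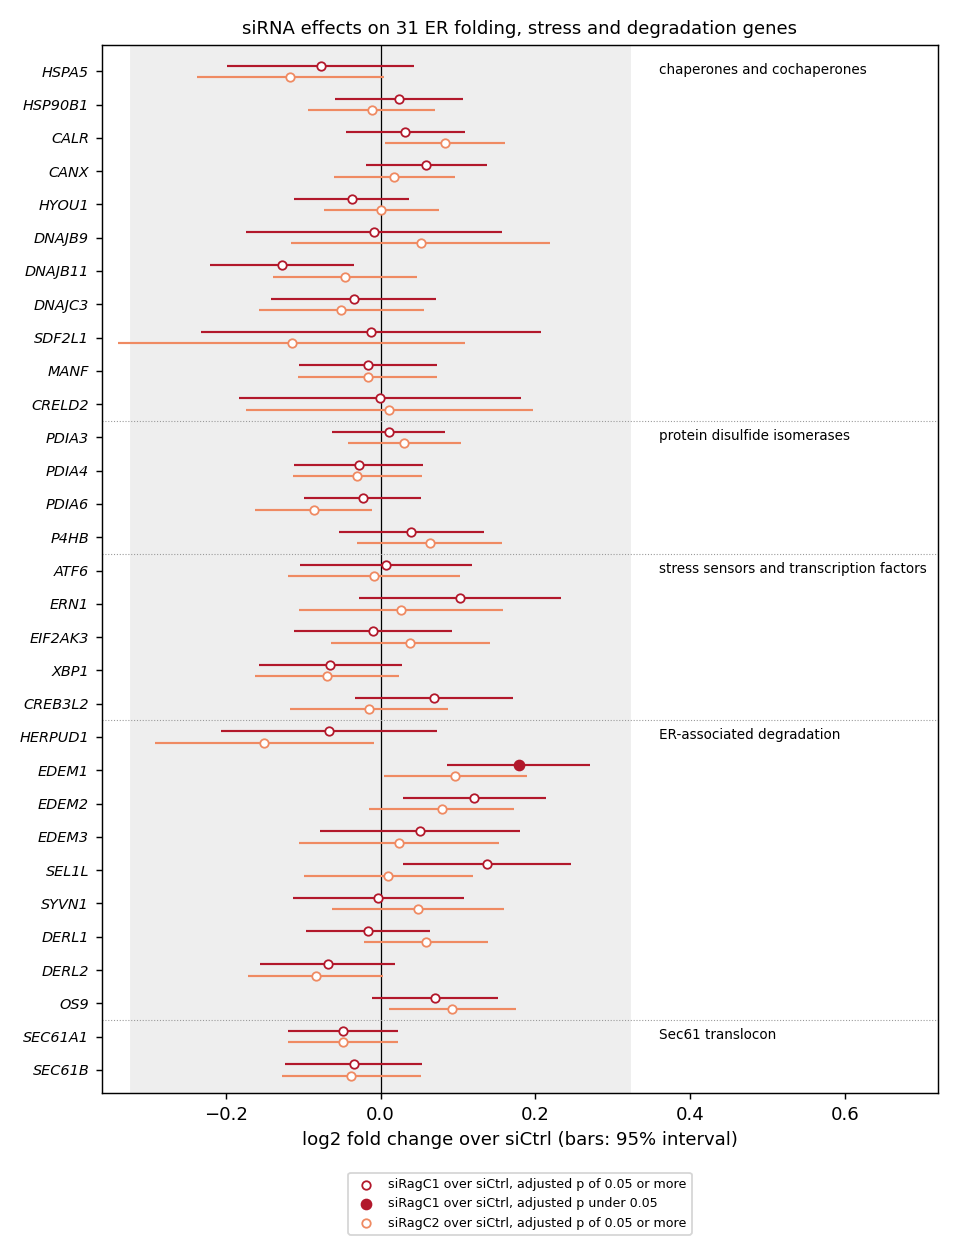
Log2 fold change over siCtrl of 31 members, by role, with siRagC1 (dark) above siRagC2 (light); bars are 95% intervals, the grey band is 0.32 on either side of 0, and DERL3 is left out for its low counts. EDEM1 with siRagC1 is the only filled point, with an adjusted p under 0.05, and all intervals shown lie within the band except that of SDF2L1 with siRagC2.

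EDEM1, a mannosidase-like protein that marks misfolded glycoproteins for degradation, rose with siRagC1. It stood at 165.5, 172.8 and 207.0 CPM (lowest, median and highest library) with siRagC1 and at 153.2, 168.3 and 184.3 CPM with siRagC2, against 138.4, 166.6 and 168.5 CPM with siCtrl. The siRagC1 and siCtrl ranges overlap because the controls differ between code series. In D1103 both siRagC1 libraries (165.5 and 166.7 CPM) exceeded both controls (140.6 and 138.4 CPM), and in D1221 all 4 siRagC1 libraries (170.2 to 207.0 CPM) exceeded all 4 controls (166.1 to 168.5 CPM). No other of the 32 genes stood above all controls within each series with siRagC1, a pattern that 1.40% of all genes showed, and none stood below them (1.00% of all genes). With siRagC2, 0 of the 32 stood above or below all controls in this way, against 1.89% and 1.93% of all genes. Set against siCtrl, siRagC1 gave a log2 fold change of 0.18 ± 0.04 (SE), or 1.13-fold with a 95% interval of 1.06 to 1.21 (edgeR, adjusted p = 0.0385), and EDEM1 was higher than the same-numbered control in 6 of 6 libraries. With siRagC2 it was 0.10 ± 0.04 (edgeR, adjusted p = 0.245), with 5 of 6 libraries higher. The log2 fold change of siRagC1 over siRagC2 was 0.08 (95% interval -0.01 to 0.17, edgeR, adjusted p = 0.696). Counts of libraries above or below a same-numbered control only describe the data, here and below. Pairing by number was not accepted for siRagC1 with siCtrl, and the share of all genes with such counts was not taken. Fitted per series, the siRagC1 effect was 0.25 ± 0.08 in D1103 and 0.14 ± 0.05 in D1221, with an adjusted p of 1.00 for the difference between series.

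The call on EDEM1 depended on which libraries were included: with siRagC1 it was kept in 11 of 24 fits that left out a library or a replicate number, and for the mean of both siRNAs in 7 of 24 (log2 fold change 0.11 to 0.16). Without siRagC1 replicate 1, 2, 3 or 4 the log2 fold change was 0.18, 0.17, 0.18 or 0.14, with adjusted p of 0.0886, 0.105, 0.0796 and 0.0847. For the mean of both siRNAs the call was lost without replicate 1, 2 or 3 of any group, siCtrl replicate 4 or 5 or siRagC2 replicate 4. For siRagC1 alone, without siCtrl replicate 1, 2, 4 or 5 the log2 fold change was 0.17, 0.16, 0.18 or 0.18, with adjusted p of 0.111, 0.104, 0.0580 and 0.0638. EDEM1 has no exact match to an ERSE or ERSE-II in the 300 bases searched. Its promoter is shown here beside that of HSPA5 because the first gene was called and the other is the usual readout of ER stress. The EDEM1 promoter is chr3:5187457-5187756 on the plus strand and that of HSPA5 is chr9:125241294-125241593 on the minus strand (RefSeq, GRCh38.p14), each written 5′ to 3′ along the gene; capitals mark the ERSE of HSPA5, at positions -66 to -48 from the start.
EDEM1 promoter: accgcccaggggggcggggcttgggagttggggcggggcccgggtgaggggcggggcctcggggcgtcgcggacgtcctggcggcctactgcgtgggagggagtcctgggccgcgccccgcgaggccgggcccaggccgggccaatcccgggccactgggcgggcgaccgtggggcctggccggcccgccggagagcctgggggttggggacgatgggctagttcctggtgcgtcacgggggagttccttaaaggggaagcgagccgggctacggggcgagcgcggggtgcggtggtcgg
HSPA5 promoter: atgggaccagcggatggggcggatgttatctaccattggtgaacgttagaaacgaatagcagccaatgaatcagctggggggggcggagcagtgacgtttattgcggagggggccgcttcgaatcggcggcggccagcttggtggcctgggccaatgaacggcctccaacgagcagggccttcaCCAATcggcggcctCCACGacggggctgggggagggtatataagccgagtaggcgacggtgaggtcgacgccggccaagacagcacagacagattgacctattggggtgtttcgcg

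The other genes of ER-associated degradation were not called. EDEM2 and EDEM3, the relatives of EDEM1 that trim mannose, had log2 fold changes of 0.12 ± 0.04 and 0.05 ± 0.06 (SE) with siRagC1 and of 0.08 ± 0.05 and 0.02 ± 0.06 with siRagC2 (edgeR, adjusted p between 0.157 and 0.890). EDEM2 stood at 44.9, 46.7 and 48.9 CPM with siRagC1 and at 44.1, 44.9 and 48.6 CPM with siRagC2, against 40.3, 43.1 and 46.4 CPM with siCtrl. The ranges overlap, and EDEM2 was higher than the same-numbered control in 6 of 6 siRagC1 libraries. SEL1L, the scaffold of the export complex, reached 158.5, 171.4 and 213.0 CPM with siRagC1 and 148.6, 163.6 and 173.4 CPM with siRagC2, against 137.8, 164.9 and 184.1 CPM with siCtrl. Its log2 fold change was 0.14 ± 0.05 with siRagC1 (adjusted p = 0.173) and 0.01 ± 0.05 with siRagC2 (adjusted p = 0.948), and in both SEL1L and EDEM1 the highest library was siRagC1 replicate 4. SYVN1, the ubiquitin ligase that SEL1L holds, had -0.0027 and 0.05. It shares 7.2% of its exon bases with FAU on the same strand, and how such reads were counted was not stated. The channel proteins DERL1 and DERL2 had -0.02 and -0.07 with siRagC1 and 0.06 and -0.08 with siRagC2. OS9, a lectin that hands glycoproteins to SEL1L, had 0.07 and 0.09 and was higher than the same-numbered control in 6 of 6 siRagC2 libraries. HERPUD1, which organises the complex and is a textbook target of the stress response, had -0.07 and -0.15 ± 0.07 (adjusted p = 0.668 and 0.236) and was lower in 6 of 6 siRagC2 libraries. DERL3 had 2 to 40 counts per library, and 77.0% of its exon bases lie opposite SMARCB1, so that its log2 fold changes of -0.50 and -0.34 (95% intervals -1.17 to 0.16 and -1.02 to 0.33) cannot be assigned to one strand. The CPM of the 10 degradation genes added up to 1008 ± 35.4 with siRagC1, 987 ± 23.7 with siRagC2 and 961 ± 26.3 with siCtrl (SD, n = 6 each).

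**Figure D2:**
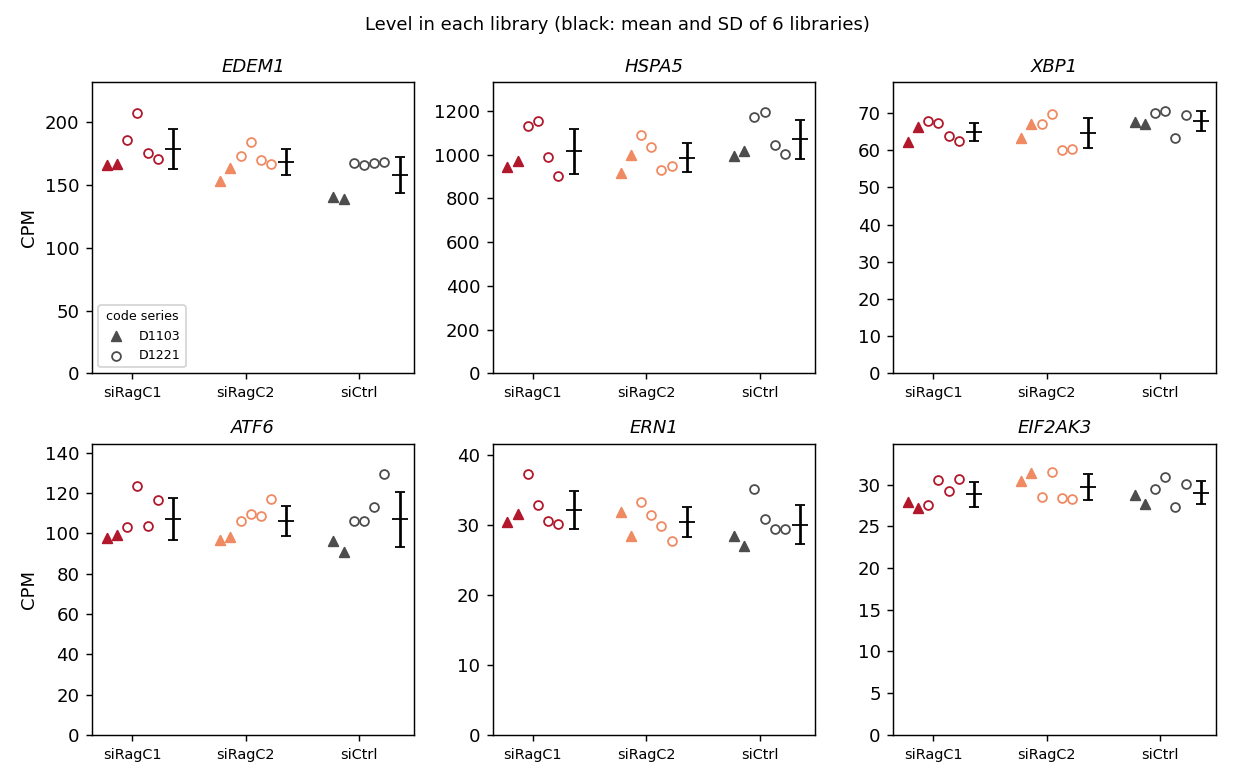
CPM of EDEM1 and of 5 stress genes in each library, by group; triangles are code series D1103, circles D1221, and black bars give mean and SD of the 6 libraries. In EDEM1 the siRagC1 libraries lie above the controls of their own series, while in XBP1, ATF6, ERN1 and EIF2AK3 the groups overlap; HSPA5 also overlaps, with each siRNA library below its same-numbered control.

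No chaperone was called. HSPA5, which encodes BiP, the HSP70 chaperone of the ER and keeper of the stress sensors, stood at 900.4, 980.1 and 1153 CPM (lowest, median and highest library) with siRagC1 and at 916.0, 973.8 and 1088 CPM with siRagC2, against 992.2, 1031 and 1195 CPM with siCtrl. The ranges overlap, and HSPA5 was lower than the same-numbered control in 6 of 6 libraries with each siRNA. Log2 fold changes were -0.08 ± 0.06 for siRagC1 and -0.12 ± 0.06 for siRagC2 (edgeR, adjusted p = 0.528 and 0.290), with 95% intervals of -0.20 to 0.04 and -0.24 to 0.0042. When the replicate number entered as a block, the siRagC2 value was -0.12 ± 0.03 and passed the threshold (adjusted p = 0.0328), in a fit that called 6.44% of all genes. The blocked siRagC1 value of -0.08 ± 0.03 did not pass (adjusted p = 0.145), and that for the mean of both siRNAs did (-0.10 ± 0.03, adjusted p = 0.0298).

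Of the remaining chaperones, DNAJB11, a J-domain partner of BiP, had the smallest adjusted p. It stood at 71.6, 77.9 and 82.9 CPM with siRagC1 and at 75.0, 83.1 and 87.8 CPM with siRagC2, against 79.1, 86.2 and 91.2 CPM with siCtrl. The ranges overlap, and DNAJB11 was lower than the same-numbered control in 6 of 6 siRagC1 libraries. Its log2 fold changes were -0.13 ± 0.04 for siRagC1 and -0.05 ± 0.04 for siRagC2 (edgeR, adjusted p = 0.132 and 0.654). The lectin chaperones CALR and CANX, which hold glycoproteins while they fold, had 0.03 and 0.06 with siRagC1 and 0.08 and 0.02 with siRagC2. HSP90B1, the HSP90 of the ER, had 0.02 and -0.01, HYOU1, a nucleotide exchange factor of BiP, -0.04 and 0.00066, and DNAJC3, a J-domain protein, -0.03 and -0.05. The secreted stress proteins MANF and CRELD2 had -0.02 and -0.0013 with siRagC1 and -0.02 and 0.01 with siRagC2. DNAJB9 and SDF2L1, partners of BiP, had -0.0084 and -0.01 with siRagC1 and 0.05 and -0.11 with siRagC2. Across the 11 chaperones the values spanned -0.13 to 0.06 for siRagC1 and -0.12 to 0.08 for siRagC2.

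The disulfide isomerases stayed as close. PDIA3 (ERp57), PDIA4, PDIA6 and P4HB (PDI itself) had log2 fold changes of 0.01, -0.03, -0.02 and 0.04 with siRagC1 and of 0.03, -0.03, -0.09 and 0.06 with siRagC2. None of them was called by edgeR, DESeq2 or limma-voom. In edgeR, 0 and 1 of the 4 had an unadjusted p under 0.05, against 17.1% and 18.5% of all genes. PDIA6 was lower than its same-numbered control in 6 of 6 siRagC2 libraries, at 201.9 to 227.7 CPM with siRagC2 and 225.2 to 236.9 CPM with siCtrl, ranges that overlap. For the 15 chaperones and isomerases together, 15 intervals with siRagC1 and 14 with siRagC2 lay within 0.32 of 0. The translocon subunits SEC61A1, the channel itself, and SEC61B had -0.05 and -0.03 with siRagC1 and -0.05 and -0.04 with siRagC2.

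None of the 5 sensors and transcription factors was called with either siRNA, and none had an unadjusted p under 0.05. XBP1, the factor whose messenger IRE1 splices, stood at 62.1, 65.0 and 67.8 CPM (lowest, median and highest library) with siRagC1 and at 60.1, 65.2 and 69.7 CPM with siRagC2, against 63.3, 68.5 and 70.4 CPM with siCtrl. The groups overlap, with log2 fold changes of -0.06 ± 0.04 and -0.07 ± 0.04 (edgeR, adjusted p = 0.482 and 0.446); gene counts do not separate the spliced form. ERN1, which encodes IRE1, stood at 30.2, 31.0 and 37.3 CPM with siRagC1 and at 27.7, 30.6 and 33.3 CPM with siRagC2, against 26.9, 29.4 and 35.0 CPM with siCtrl. It was higher than the same-numbered control in 6 of 6 siRagC1 libraries, with 0.10 ± 0.06 (adjusted p = 0.421), and had 0.03 ± 0.06 with siRagC2 (adjusted p = 0.878).

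ATF6, the sensor that becomes a transcription factor after cleavage in the Golgi, stood at 97.6, 103.2 and 123.2 CPM with siRagC1 and at 96.7, 107.4 and 117.0 CPM with siRagC2, against 90.5, 106.2 and 129.3 CPM with siCtrl. Its groups overlap throughout, with log2 fold changes of 0.0072 ± 0.05 and -0.0084 ± 0.05 (edgeR, adjusted p = 0.966 and 0.958). EIF2AK3, which encodes PERK, stood at 27.2, 28.6 and 30.6 CPM with siRagC1 and at 28.2, 29.5 and 31.5 CPM with siRagC2, against 27.3, 29.1 and 30.9 CPM with siCtrl. The groups again overlap, with -0.01 ± 0.05 and 0.04 ± 0.05 (adjusted p = 0.945 and 0.757). Over XBP1 and the 3 sensors, the 95% intervals spanned -0.16 to 0.23 for siRagC1 and -0.16 to 0.16 for siRagC2. CREB3L2, a relative of ATF6 in the ER membrane, had 0.07 ± 0.05 and -0.02 ± 0.05.

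The promoter motifs divide the members into sets. The 10 genes with an ERSE or ERSE-II had a median log2 fold change of -0.02 with siRagC1 and -0.04 with siRagC2, and 0 of the 10 were called, against 2.04% and 3.23% of all genes (edgeR; 0 by DESeq2 and limma-voom). An unadjusted p under 0.05 was found for 0 of the 10 with siRagC1 and 3 with siRagC2, against 17.1% and 18.5% of all genes. The 3 differed in direction: CALR had 0.08, PDIA6 -0.09 and HERPUD1 -0.15. HSPA5, one of the 10, was called with siRagC2 under the replicate block, in a fit that called 6.44% of all genes. The 19 with a promoter and neither motif had medians of -0.0027 and 0.01, and 1 of them, EDEM1, was called with siRagC1. Of the 19, 4 and 2 had an unadjusted p under 0.05, against the same 17.1% and 18.5% of all genes. Variant or more distant elements were not searched for, so the 19 cannot be taken as genes without such elements. No test was made of the difference between these sets.

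**Figure D3:**
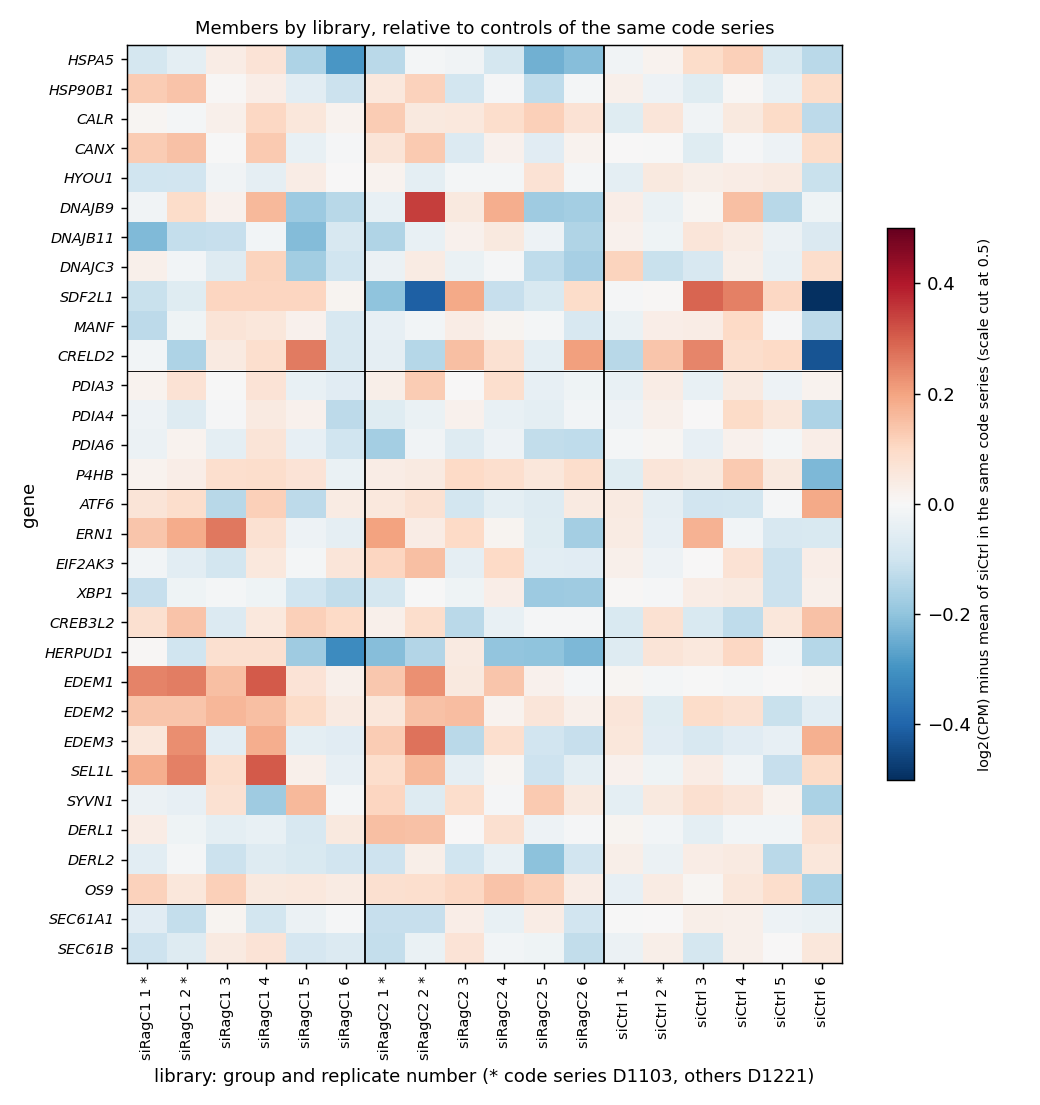
Log2 CPM of 31 members in each of the 18 libraries minus the mean of the siCtrl libraries of the same code series, by role; red is higher, blue lower, and colours saturate at 0.5. EDEM1 is above the control mean in all 6 siRagC1 columns, but barely so in replicate 6 (170.2 CPM, against 166.1 to 168.5 CPM in the D1221 controls). HSPA5 is mostly blue with both siRNAs, and the darkest cells are those of SDF2L1 and CRELD2 in siCtrl replicate 6.

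As over all genes, the code series differed more than the siRNA groups did. Between D1221 and D1103, with the groups held in the model, 9 of the 32 were higher and 6 lower (edgeR, adjusted p under 0.05), where 48.8% of all genes were called, 23.8% higher and 25.0% lower. CREB3L2 had the largest difference, a log2 fold change of 0.54 ± 0.04 (adjusted p = 1.07e-08), and EDEM3, ATF6, SEL1L and EDEM1 were also higher in D1221, by 0.24, 0.21, 0.21 and 0.18. OS9, CALR, P4HB and SYVN1 were lower in D1221, with -0.32, -0.24, -0.18 and -0.17. The absolute series difference exceeded both siRNA effects in 20 of the 32 genes, 62.5% against 61.9% of all genes, and its median was 0.11 for the 32 and 0.165 for all genes. The interaction of siRNA and series called 0 of the 32 and 0 of all 15307 genes for each siRNA (edgeR). An unadjusted p under 0.05 for it was found for 0 of the 32 with siRagC1 and 1 with siRagC2, EDEM3, against 2.03% and 6.66% of all genes. Among single libraries, siCtrl replicate 6 was the highest or lowest of its group in 22 of 31 genes, with 11 on each side, against 4 to 18 for the other 17 libraries.

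**Figure D4:**
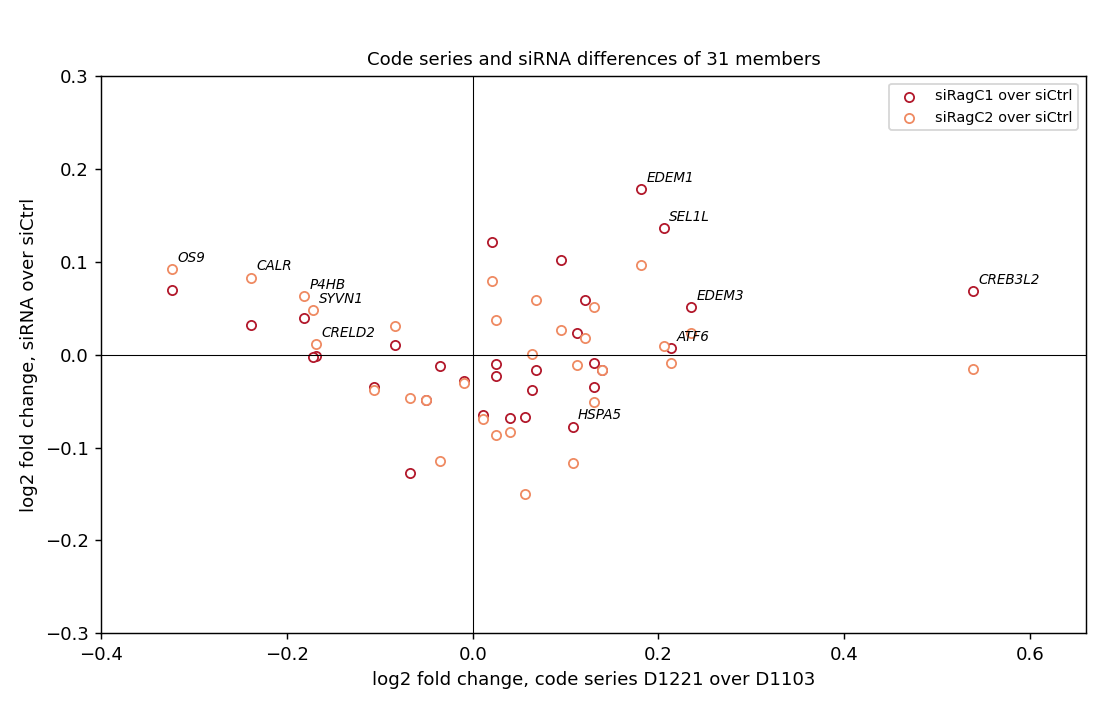
Log2 fold change between the code series (D1221 over D1103, horizontal) against that of each siRNA over siCtrl (vertical) for 31 members, on equal scales. Points spread further along the horizontal axis, between -0.32 for OS9 and 0.54 for CREB3L2, than along the vertical one, where EDEM1 with siRagC1 is the highest at 0.18.

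Of 7 lists of genes in the same and neighbouring pathways, that of the PERK and ATF4 arm held the most calls with each siRNA. The lists were chosen with earlier results of these data known, so this ranking was not a test. The PERK arm slows translation by phosphorylating eIF2α and raises ATF4, which drives amino acid synthesis and CHOP. Amino acid shortage and mTORC1 are known to act on ATF4 as well. Of 20 genes listed for this arm, 0 rose and 3 fell with siRagC1, and 0 rose and 4 fell with siRagC2 (edgeR). Of all genes, 2.04% and 3.23% were called in either direction. The median log2 fold changes of the 20 were -0.04 and -0.11, and 7 and 5 of them had a positive value. Single values ran from -0.30 to 0.49 with siRagC1 and from -0.45 to 0.24 with siRagC2. For the mean of both siRNAs 0 rose and 5 fell, against 4.95% of all genes; the fifth was PPP1R15B, a subunit of the eIF2α phosphatase (-0.13 ± 0.04, adjusted p = 0.0383), whose call was kept in 7 of 18 fits that left out 1 library. With a block for the replicate number, 1 rose (NUPR1) and 5 fell with siRagC1, and 0 rose and 6 fell with siRagC2. Those fits called 5.64% and 6.44% of all genes. Without the code series term 0 genes of the 7 lists were called. PSAT1, an enzyme of serine synthesis, stood at 59.1, 72.8 and 76.8 CPM with siRagC1 and at 49.4, 67.0 and 74.3 CPM with siRagC2, against 75.6, 87.7 and 95.1 CPM with siCtrl. The highest siRagC2 library (74.3 CPM) lay just below the lowest control (75.6 CPM), while siRagC1 overlapped the controls. The share of all genes separated over all libraries in this way was not taken. The log2 fold changes of PSAT1 were -0.30 ± 0.06 and -0.45 ± 0.06 (SE, edgeR, adjusted p = 0.00881 and 0.000396). MTHFD2, a mitochondrial enzyme of folate metabolism, fell by 0.25 and 0.19 on the log2 scale (adjusted p = 0.00577 and 0.0202), and CEBPG, a partner of ATF4, fell by 0.21 and 0.18 (adjusted p = 0.0177 and 0.0355); both were lower than the same-numbered control in 6 of 6 libraries with each siRNA. ASNS, which makes asparagine, fell by 0.31 with siRagC2 (adjusted p = 0.0225), while its siRagC1 value was -0.21 (adjusted p = 0.133).

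These calls were uneven in strength. Over 18 fits that each left out 1 library, PSAT1 was called in all 18 with each siRNA. MTHFD2 lost its siRagC2 call without siRagC2 replicate 1 or siCtrl replicate 1, and CEBPG its siRagC1 call without siRagC1 replicate 2 or siCtrl replicate 1. CEBPG lost its siRagC2 call without siRagC2 replicate 1, 4, 5 or 6 or siCtrl replicate 1, 3 or 4, and ASNS without siRagC2 replicate 1 or 4 or siCtrl replicate 1, with adjusted p of at most 0.109 among these fits. ATF4 and DDIT3, added after their values were seen, were not called. ATF4 stood at 166.8, 210.5 and 224.2 CPM with siRagC1 and 177.0, 183.1 and 213.9 CPM with siRagC2, against 180.6, 231.0 and 254.0 CPM with siCtrl, and its log2 fold changes were -0.14 ± 0.07 and -0.25 ± 0.07 (edgeR, adjusted p = 0.318 and 0.0504; the siRagC2 value was called by DESeq2 and with the replicate block). DDIT3, which encodes CHOP, had 0.07 ± 0.09 and -0.09 ± 0.10 (adjusted p = 0.776 and 0.675). Within D1221 alone 0 genes of this list were called with either siRNA, in fits that called 1 gene of all with each. Within D1103 alone 1 rose (CEBPB) and 3 fell with siRagC1, and 1 rose (DDIT4) and 4 fell with siRagC2. Those fits called 554 and 1149 genes of all. CEBPB and DDIT4 were named after their values were seen.

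**Figure D5:**
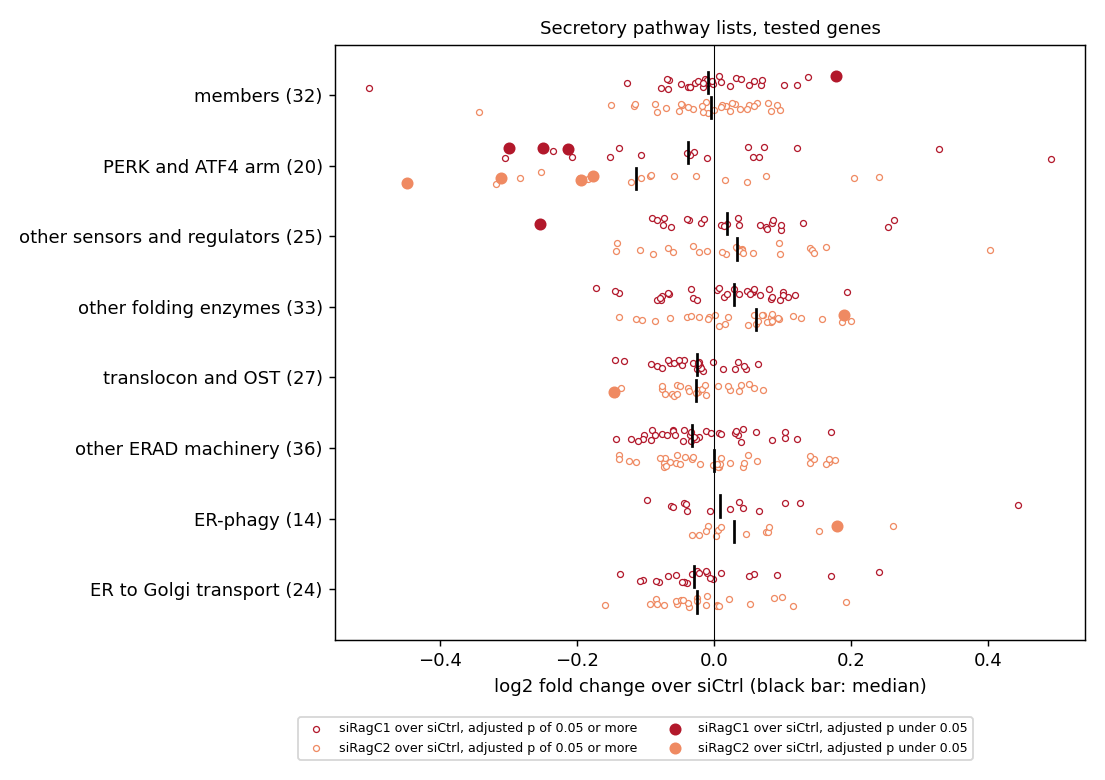
Log2 fold change over siCtrl of the members and of 7 lists of related genes with siRagC1 (dark, upper) and siRagC2 (light, lower); filled points have an adjusted p under 0.05, black bars are medians and numbers in brackets count genes tested. The filled points of the PERK and ATF4 arm all lie left of 0, 3 with siRagC1 and 4 with siRagC2, and the other lists have at most 1 per siRNA.

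Of the 25 tested genes of other sensors and regulators, 1 fell with siRagC1 and 0 were called with siRagC2 (edgeR), against 2.04% and 3.23% of all genes. With siRagC2, 9 of the 25 had an unadjusted p under 0.05 in edgeR, against 18.5% of all genes. For the same comparison DESeq2, whose totals over all genes follow below, called 3 higher and 2 lower, and limma-voom 0. The replicate block called 1, ATF6B, higher, against 6.44% of all genes. The gene that fell with siRagC1 in edgeR was EIF2S1, which encodes eIF2α, the target of PERK. It stood at 129.6, 166.8 and 187.8 CPM with siRagC1 and 154.6, 177.1 and 187.4 CPM with siRagC2, against 172.1, 189.3 and 220.3 CPM with siCtrl. The groups overlap, and EIF2S1 was lower than the same-numbered control in 6 of 6 libraries with each siRNA. Its log2 fold changes were -0.25 ± 0.05 and -0.14 ± 0.05 (edgeR, adjusted p = 0.00809 and 0.101). For the mean of both siRNAs the value was -0.20 ± 0.04 (edgeR, adjusted p = 0.00879). The siRagC1 call and that for the mean each held in 18 of 18 fits that left out 1 library. Of 33 other folding genes, SERPINH1, the collagen chaperone, rose with siRagC2 (0.19 ± 0.05, adjusted p = 0.0234), but not without siRagC2 replicate 1 or 4 or siCtrl replicate 1 (adjusted p of at most 0.0832). Of 27 translocon and oligosaccharyltransferase genes, SSR3 of the translocon-associated complex fell with siRagC2 (-0.15 ± 0.04, edgeR, adjusted p = 0.0397). This call was lost in 12 of the 18 fits, those without any 1 of the siRagC2 libraries, siRagC1 replicate 1 or 2, or siCtrl replicate 1, 2, 4 or 6 (adjusted p of at most 0.101). For the mean of both siRNAs SSR3 also fell (-0.14 ± 0.03, edgeR, adjusted p = 0.0196), a call kept in 17 of the 18 fits. With siRagC1, DESeq2 and the replicate block called SSR3 as lower, but not limma-voom or edgeR without the block.

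Of 36 further degradation genes and 24 tested genes of transport from the ER to the Golgi, 0 were called with either siRNA by edgeR; DESeq2 called 2 and 5 of the degradation genes and 2 and 3 of the transport genes, and limma-voom 0 and 0, and 0 and 1. DESeq2 called 778 and 1005 genes of all. The replicate block called 1 and 2 of the degradation genes (MAN1B1 with both siRNAs and HERPUD2 with siRagC2, all higher) and 0 and 3 of the transport genes (KDELR1 and KDELR3 higher, SAR1B lower); the genes that the block added to a list were named after their values were seen, ATF6B among them. For the mean of both siRNAs without the block, MAN1B1, a mannosidase, rose (0.17 ± 0.04, adjusted p = 0.0303), as did KDELR3, a retrieval receptor (0.18 ± 0.05, adjusted p = 0.0389), and SAR1B, a GTPase of the COPII coat, fell (-0.15 ± 0.04, adjusted p = 0.0292); these calls were kept in 14, 8 and 14 of 18 fits that left out 1 library. An unadjusted p under 0.05 was found in edgeR for 8 and 11 of the degradation genes and for 5 and 6 of the transport genes, against 17.1% and 18.5% of all genes. Of 14 genes of ER-phagy, the lysosomal removal of ER, RETREG2, a membrane-bending receptor of this process, rose with siRagC2 (0.18 ± 0.04, adjusted p = 0.0190), but not without siRagC2 replicate 1 or siCtrl replicate 1 (adjusted p of at most 0.0663). Its siRagC1 value was 0.13 ± 0.04 (edgeR, adjusted p = 0.110). For the mean of both siRNAs RETREG2 rose (0.15 ± 0.04, edgeR, adjusted p = 0.0182), a call kept in 17 of 18 fits that left out 1 library. RETREG1, a relative added after its values were seen, had the largest values of this list, 0.44 ± 0.13 and 0.26 ± 0.13 (edgeR, adjusted p = 0.0701 and 0.296), and DESeq2 called both genes as higher with siRagC1 and RETREG2 with siRagC2. For comparison, 0.627% of all genes fell and 1.41% rose with siRagC1, and 1.36% fell and 1.87% rose with siRagC2.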

How the data were processed

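Total RNA (500 ng per library, per the labels) was sequenced from 18 libraries. Raw gene counts are what the authors deposited, in a single table; per the submitters' processing notes, cutadapt 0.6.2 and STAR 2.7.6a were used with GRCh37/hg19. How reads were counted (tool, strand, annotation release) was not stated, so reads of a gene and its antisense partner cannot be told apart. Groups, replicate numbers and code series came from the labels.

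Testing used edgeR 4.0.16 under R 4.3.3: genes were filtered by filterByExpr, scaled by TMM and tested by the robust quasi-likelihood method, with terms for code series and group over all 18 libraries and Benjamini-Hochberg adjustment over the 15307 genes tested. Single libraries held at least 14.8 M counts (M, 1e6). Intervals are 95% intervals of that model. The members and lists were chosen with earlier results of these data known. All members are accounted for; values per library are given for called members, HSPA5, XBP1, ATF6, ERN1, EIF2AK3 and the most affected chaperone, and up to 4 called genes are named of each other list. Of the lists, SEC22B and PECAM1 were not matched.

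Pairing by replicate number was accepted if the deviations of all same-numbered libraries from their group means correlated by over 0.1. This held for siRagC2 with siCtrl (0.116 to 0.492) and siRagC1 with siRagC2 (0.221 to 0.582), not for siRagC1 with siCtrl (0.0765 to 0.610); the pairing comes from the data, as the labels give only the number. No library duplicated another. Alternatives were RLE factors, other filters, DESeq2 1.42.0, limma-voom 3.58.1, the block, no series term, each series alone, libraries left out and other thresholds; the same alternatives for the lists of related genes were added after seeing the data. The procedure was tested on simulated data.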

Additional observations from a re-analysis of the deposited data

Results flagged for a closer look

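In 4 of the 96 sets of 6 libraries (32 genes in 3 groups), 1 library stood apart from the rest of its group by Dixon's ratio, of which chance gives about 1 in 20. CANX reached 1530 CPM in siRagC1 replicate 4, where the next library had 1395 CPM and the lowest 1329 CPM. ERN1 reached 37.3 CPM in siRagC1 replicate 3, with 32.8 CPM next and 30.2 CPM lowest, and siCtrl replicate 3 was also the highest control at 35.0 CPM. HERPUD1 reached 37.7 CPM in siRagC2 replicate 3, with 31.9 CPM next and 30.6 CPM lowest. SDF2L1 fell to 7.40 CPM in siCtrl replicate 6, against 12.4 CPM in the next control and 14.1 CPM in the highest, and CRELD2 was also lowest in this library, at 11.5 CPM.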

How the results depend on the processing

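EDEM1 kept its direction in all 33 alternatives for its siRagC1 value (0.14 to 0.25, adjusted p = 0.00455 to 0.730). Members called with siRagC1 numbered 0 at an adjusted p under 0.01, without the code series term and in D1221 alone, against 1, and 0 to 3 with libraries or replicate numbers left out; the 3, without replicate number 6, were DNAJB11 (lower), EDEM1 and SEL1L (higher). With siRagC2, 1 was called with the replicate block (HSPA5, lower), against 0, and 0 to 1 with libraries left out (SDF2L1, lower, without replicate number 6). For the mean of both siRNAs, 2 were called with the replicate block, 0 to 1 with libraries left out, and 0 at an adjusted p under 0.01, with no low-count filter, without the series term and in D1221 alone, against 1. The count between the siRNAs and the count shared by both were 0 in all 35 alternatives. The replicate block changed no other call on a member. Over all genes, calls with siRagC1 and siRagC2 numbered 312 and 495, but 778 and 1005 by DESeq2, 799 and 843 with no low-count filter, 864 and 986 with the block, 554 and 1149 in D1103 alone, 7 and 19 without the series term and 1 and 1 in D1221 alone. The cause of these changes was not tested.

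Values that changed sign were uncalled in each fit. In D1221 alone ATF6 had -0.0280 with siRagC1, ERN1 -0.0239 and EIF2AK3 -0.0128 with siRagC2, and in D1103 alone ATF6 had 0.0637 with siRagC2. With libraries left out, ATF6 ran from -0.0350 to 0.0534 with siRagC1 and from -0.0369 to 0.0377 with siRagC2, EIF2AK3 from -0.0306 to 0.00760 with siRagC1, and ERN1 from -0.00370 to 0.0694 with siRagC2. Counts were lowest for DERL3, with 2 to 40 per library, followed by SDF2L1 (143 to 954) and CRELD2 (222 to 1245). What limited the precision of each gene was not tested.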
